A study of Mus musculus with 9 samples.

Results

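Immediate early genes are genes whose transcription starts within minutes of a stimulus without new protein synthesis. The 10 described here were chosen by name, 1 probe set each, of 19752 genes measured: Fos, Jun, Junb, Jund, Atf3, Egr1, Egr2, Nr4a1, Ier2 and Dusp1. The choice was made with earlier results of these data known. The cells were peritoneal macrophages, sorted by flow cytometry from C57BL/6 males that were 6 weeks old. Mice received 10000 U of recombinant IFNa (interferon alpha, a type I interferon, n = 4 arrays) or 8000 U of recombinant IFNg (interferon gamma, the type II interferon, n = 2) under the skin 2 h before the cells were taken, or no treatment (n = 3). The samples include no group injected with vehicle alone, so in both comparisons with untreated mice the interferon and the injection cannot be told apart. Only the comparison of IFNa with IFNg is between injected groups. Treated cells are labelled as sorted on F4/80 and ICAM2 and untreated cells as sorted on F4/80. The study's design text gives F4/80 and ICAM without naming groups. If the sorting differed as labelled, it too cannot be told apart from the treatment in both comparisons with untreated mice. Arrays read RNA from bulk cells, so fewer cells of a type and less RNA per cell cannot be told apart. The labels do not say whether each array came from 1 mouse or from a pool, so p-values measure the spread between these samples.

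As background, growth factors, stress and inflammatory signals reach these genes through MAP kinases, which phosphorylate factors already bound to DNA, among them serum response factor with its ETS partners and CREB. Many of the products are transcription factors themselves: FOS and JUN proteins form AP-1 dimers, ATF3 often represses inflammatory genes, and EGR and NR4A proteins are zinc finger factors. DUSP1 closes the loop, since it removes phosphate from p38 and JNK. In macrophages the transcripts are short-lived, and isolating cells is itself known to induce them.

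All 11 measured markers of large peritoneal macrophages lay above the median gene on these arrays. Their summed intensity ranged from 64410 to 73126 in IFNa arrays and from 68021 to 70009 in IFNg arrays, against 68495 to 72939 in untreated arrays. Gata6, the transcription factor gene of these cells, was the single called marker, with log2 differences of -1.05 after IFNa and -1.16 after IFNg. Adgre1, which encodes F4/80, differed by 0.04 and 0.01, and Icam2, the other sorting marker, by -0.24 and 0.05. Of 10 interferon-inducible genes, 8 rose after IFNa and 7 after IFNg. No marker of 6 other cell type lists was called. Their summed intensities, in the order IFNa, IFNg and untreated, spanned 2957 to 3422, 3727 to 3813 and 3372 to 3836 for 7 markers of monocytes, dendritic cells and small macrophages, and 597 to 1982, 614 to 673 and 747 to 1028 for 5 of B cells. They spanned 340.1 to 501.7, 352 to 364 and 375 to 445 for 5 of T and NK cells, of which none lay above the median gene, and 344 to 407, 337 to 338 and 394 to 532 for 6 of mast cells, again none above it. For 6 markers of neutrophils and eosinophils they were 528 to 729.5, 522 to 537 and 492 to 620.4, and for 6 mesothelial and stromal markers 875 to 1119.8, 844 to 892 and 805 to 1143. Intensity has no true 0 on these arrays, and the part of other cells in the results was not tested. IFNa replicate 4 and untreated replicate 1 had a narrow range of intensities: their upper quartile was log2 2.16 and 2.27 above the lower one, against 2.68 to 3.03 on the other arrays.

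After IFNa, Atf3 rose and Jund, Ier2 and Nr4a1 fell, while the other 6 genes did not pass the test (limma, Benjamini-Hochberg over all genes, called at an adjusted p under 0.05). These 1 rise and 3 falls of 10 stand beside 2.65% of all genes called, 1.79% higher and 0.856% lower. The members were chosen with earlier results of these data known, so such shares side by side are not an independent test. After IFNg, Atf3 and Egr2 rose, 2 of 10 beside 1.24% of all genes called higher and 1.35% called in either direction, and none fell (0.111% of all genes; 3 members had negative differences with an unadjusted p under 0.05). Between the interferons, Egr2 was the single member called, lower with IFNa (of all genes, 0.537% were called lower and 0.977% in either direction). The median difference of the 10 was log2 -0.72 after IFNa and -0.26 after IFNg, against -0.02 and -0.06 over all genes. Without the dimmest 50% of genes, the median over genes was -0.05 and 0.10. Of the members, 7 after IFNa and 5 after IFNg had an unadjusted p under 0.05 in either direction, beside 2356 and 1626 of 19752 genes. The 2 comparisons share their untreated arrays. Leaving out each array in turn gave 0 to 3 falls after IFNa and 0 to 2 rises after IFNg. No fall after IFNa was called without untreated replicate 2, and 1 was called without untreated replicate 3 or IFNa replicate 1 or 2. No rise after IFNg was called without IFNg replicate 2, and 1 was called without any other single array except IFNa replicate 4. Without both narrow arrays, 6 members fell after IFNa and 2 after IFNg. Of all genes, calls after IFNa split into 354 higher and 169 lower in the fit reported here, and into 500 and 421 under quantile normalization; after IFNg they split into 245 and 22 in that fit, and into 276 and 80 under quantile normalization.

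**Figure D1:**
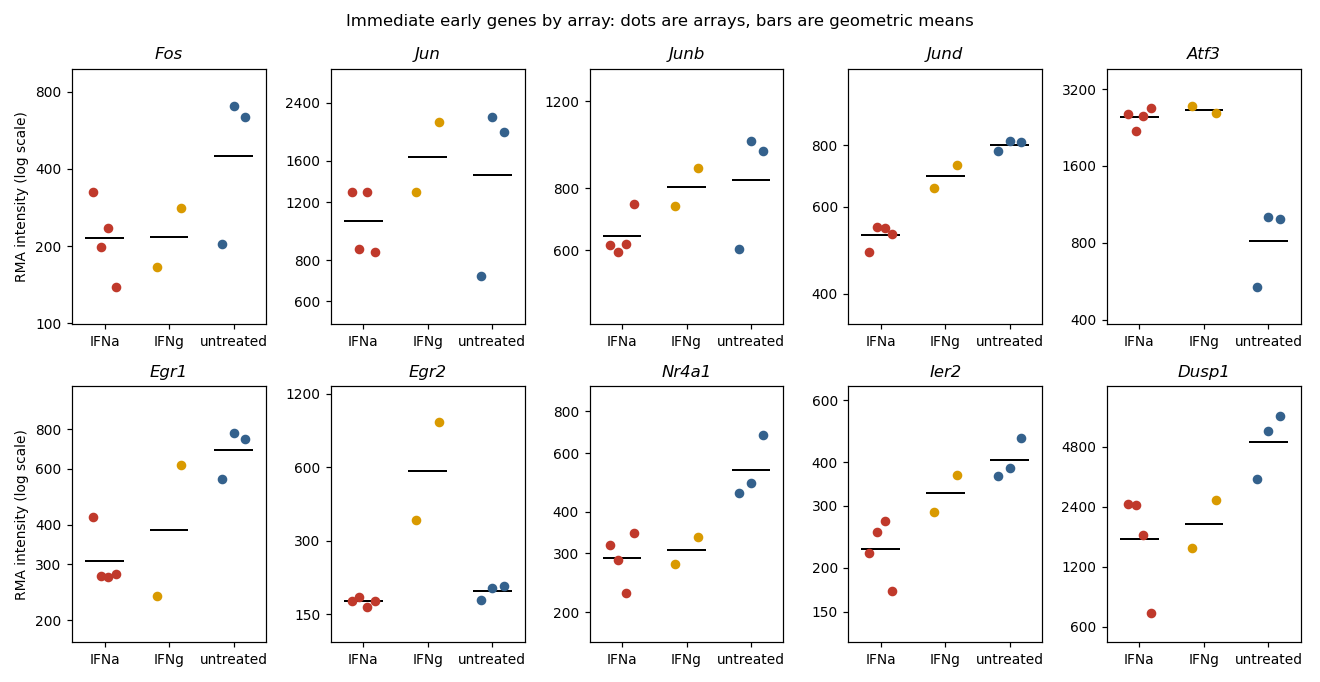
RMA intensity (log scale) of each of the 10 immediate early genes on every array, with 1 dot per array and a bar at the geometric mean of the IFNa (n = 4), IFNg (n = 2) and untreated (n = 3) groups. All treated arrays lie above all untreated ones for Atf3, and both IFNg arrays lie above the other 7 for Egr2. Untreated replicate 1 is the lowest untreated array for every gene, and far below the others for Fos, Jun, Junb, Atf3 and Dusp1.

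The stretch before the start of transcription is shown for the called genes that RefSeq's promoter table (build GRCm38.p6) holds, because these are the genes whose levels differed. Each run is the 250 bases before the start, on the gene's own strand, and Egr2 is given at 1 of its 5 listed starts, chosen after its motifs were seen. Capitals mark matches to the CRE core (TGACG, bound by CREB and ATF proteins), the CArG box (bound by serum response factor), the TRE of AP-1 (TGACTCA or TGAGTCA), the CRE (TGACGTCA), the GAS of STAT dimers (TTCNNNGAA), the ISRE core (GAAA, any 2 bases, GAAA) or the TATA box (TATAAA), on either strand. The GC box (GGGCGG) was searched too and is not marked.
Atf3, chr1:191183334-191183583, minus strand: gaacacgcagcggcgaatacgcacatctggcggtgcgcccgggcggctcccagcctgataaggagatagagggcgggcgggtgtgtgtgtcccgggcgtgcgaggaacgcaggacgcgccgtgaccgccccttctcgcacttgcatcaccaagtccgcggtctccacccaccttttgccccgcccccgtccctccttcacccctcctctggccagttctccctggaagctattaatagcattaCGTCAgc
Egr2, chr10:67537619-67537868, plus strand: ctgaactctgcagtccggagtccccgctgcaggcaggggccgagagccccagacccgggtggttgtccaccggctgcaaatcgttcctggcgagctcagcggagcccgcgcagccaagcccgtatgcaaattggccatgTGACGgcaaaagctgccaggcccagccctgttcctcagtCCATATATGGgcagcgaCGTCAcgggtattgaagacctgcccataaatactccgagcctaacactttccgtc
Jund, chr8:70697489-70697738, plus strand: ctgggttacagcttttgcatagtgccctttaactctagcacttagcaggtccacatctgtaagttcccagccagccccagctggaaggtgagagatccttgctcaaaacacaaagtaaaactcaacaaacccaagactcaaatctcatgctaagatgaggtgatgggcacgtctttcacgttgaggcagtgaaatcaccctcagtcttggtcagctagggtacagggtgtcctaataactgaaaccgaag
Nr4a1, chr15:101266596-101266845, plus strand: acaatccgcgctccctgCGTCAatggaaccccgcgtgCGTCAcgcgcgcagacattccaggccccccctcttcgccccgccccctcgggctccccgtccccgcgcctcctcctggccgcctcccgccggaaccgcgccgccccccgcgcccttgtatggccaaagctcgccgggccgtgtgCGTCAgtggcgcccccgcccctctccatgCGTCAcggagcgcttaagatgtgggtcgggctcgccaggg
The Egr2 stretch holds a CArG box 72 to 63 bases before the start, a motif found in 1.47% of the 32817 RefSeq stretches of this length, and a CRE core on each side of it. The same box lies in 3 of the 5 Egr2 windows, which overlap there. Nr4a1 holds 4 CRE cores and Atf3 holds 1, 7 to 3 bases before its start, while the Jund stretch has no match to any motif searched. Of the 8 members with an entry, 6 hold a CRE core, which 17.7% of all stretches hold, and Dusp1 holds the full CRE, which overlaps the CRE core and is found in 1.55%. TRE, GAS and ISRE core matches are in none of the 8, against 4.46%, 7.01% and 2.97% of all stretches. TATAAA is present in Fos, against 12.4% of all, and a GC box in 6 of the 8, against 32.7%. Egr2 was scored over any of its 5 windows, while the shares are per window; its GC boxes lie in other windows than the one shown. A match is a string of letters, not evidence of binding.

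Atf3 encodes a stress-induced factor that dimerises with JUN proteins and curbs inflammatory transcription. Its intensity was 2554, 2191, 2501 and 2703 in the 4 IFNa arrays and 2750.1 and 2572 in the 2 IFNg arrays, against 537, 1012 and 989.7 in the 3 untreated arrays. Every treated array lay above every untreated one, and the interferon groups overlapped. The rise was log2 1.61 ± 0.21 (SE, 3.05-fold, adjusted p = 0.00225) after IFNa and 1.71 ± 0.25 (3.27-fold, adjusted p = 0.00929) after IFNg by limma. Without untreated replicate 1, the lowest array, the fold over untreated was smaller, at log2 1.31 and 1.41, and both calls held. The call after IFNg was lost without IFNg replicate 1 (adjusted p = 0.14) or replicate 2 (0.0994), when 1 IFNg array was left and was assumed to vary like the other groups. IFNa and IFNg differed by -0.10, with a 95% interval of -0.64 to 0.43.

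Egr2 encodes a zinc finger factor of the early growth response family. It had an intensity of 170.5, 176.7, 161.1 and 169.5 in the IFNa arrays and of 364 and 919 in the IFNg arrays, against 171.5, 191.3 and 195.1 in untreated arrays. Both IFNg arrays lay above the other 7, but they differed from each other more than 2-fold, whereas IFNa and untreated arrays overlapped. The standard deviation of log2 levels was 0.94 in IFNg, 0.055 in IFNa and 0.10 in untreated arrays. The fit assumes an equal spread in all groups, and the errors and p-values given here for Egr2 rest on that. Against untreated, Egr2 rose by log2 1.64 ± 0.30 (3.12-fold, adjusted p = 0.0301) after IFNg. After IFNa the difference was -0.13 (95% interval -0.70 to 0.44). The direct difference, IFNa minus IFNg, was -1.77 ± 0.29 (adjusted p = 0.0187, limma). In limma fits of the compared groups alone, neither call held (adjusted p = 0.219 against untreated and 0.0905 between the interferons). Without IFNg replicate 2 the rise was 0.97 (adjusted p = 0.0667). The call after IFNg was also lost without IFNa replicates 1, 2 or 3 or any untreated array (adjusted p up to 0.114), and the direct call without IFNa replicates 1, 2 or 3 (0.0526 to 0.0633). Without both narrow arrays the rise over untreated was 1.58 and did not pass (adjusted p = 0.0681).

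Egr1 encodes another zinc finger factor of that family. Its intensities were 422, 276, 274 and 281 after IFNa and 239 and 618 after IFNg, against 557, 779 and 745 in untreated arrays. All IFNa arrays lay below all untreated arrays, and the 2 IFNg arrays lay on both sides of the lowest untreated one. Egr1 differed from untreated by log2 -1.16 ± 0.30 after IFNa (adjusted p = 0.0947) and -0.84 ± 0.36 after IFNg (adjusted p = 0.584), so neither passed. The first passed in the fit of IFNa and untreated arrays alone (adjusted p = 0.0213), the same as without either IFNg array, under quantile normalization (0.0497) and with the quartile range as a covariate (0.0489). Like Egr2, it was higher in IFNg replicate 2 than in replicate 1.

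Of the 4 members of the FOS and JUN families, Jund alone was called. JUND is the JUN protein usually present in resting cells. The gene had intensities of 486, 547, 543 and 529 after IFNa and 656 and 729 after IFNg, against 780.3, 817 and 810.3 in untreated arrays. The 3 groups did not overlap, in the order IFNa, IFNg, untreated from low to high. The log2 difference after IFNa was -0.61 ± 0.10 (1.53-fold lower, adjusted p = 0.011, limma), and without untreated replicate 2 it no longer passed (adjusted p = 0.0724). After IFNg the difference was -0.21 (95% interval -0.49 to 0.06, adjusted p = 0.702), and between the interferons -0.40 (adjusted p = 0.266), so the order of neighbouring groups did not pass a test.

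Fos encodes the partner that JUN proteins need for the classic AP-1 dimer. Its intensity was 326, 199, 236 and 139 in IFNa arrays and 166 and 283 in IFNg arrays, against 204, 703 and 637 in untreated arrays. Untreated replicate 1 lay among the treated arrays and the other 2 untreated arrays lay above all of them. The difference from untreated was log2 -1.07 after IFNa (95% interval -2.05 to -0.08, adjusted p = 0.36) and -1.06 after IFNg (-2.23 to 0.12, adjusted p = 0.657). Without untreated replicate 1 it was -1.64 after IFNa (adjusted p = 0.0392), and without both narrow arrays -1.43 (0.0186) after IFNa and -1.63 (0.0262) after IFNg. Fos levels after IFNa and after IFNg differed by -0.01 (95% interval -1.13 to 1.11).

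Jun, whose product forms AP-1 dimers with FOS or with itself, gave 1289.9, 867, 1289.9 and 846 after IFNa and 1289.9 and 2092 after IFNg, against 717, 2176 and 1951 in untreated arrays. Arrays of all groups overlapped, and untreated replicate 1 was the lowest of the 9. The value 1289.9 stands on 3 arrays to the last deposited decimal, and 16.4% of all probe sets likewise repeat a value on at least 3 arrays. The difference from untreated was log2 -0.46 after IFNa (95% interval -1.30 to 0.37) and 0.18 after IFNg (-0.82 to 1.18). The sign after IFNg turned to -0.33 without untreated replicate 1 and to -0.17 without IFNg replicate 2.

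Junb, another JUN family member, had 615, 595, 617 and 742 after IFNa and 738 and 878 after IFNg, against 603, 998 and 951 in untreated arrays. It again had untreated replicate 1 among the IFNa arrays. Differences were log2 -0.38 (95% interval -0.79 to 0.04) after IFNa and -0.04 (-0.54 to 0.45) after IFNg, and neither passed. The sign after IFNg turned without IFNg replicate 1 (0.08) or without untreated replicate 2 (0.09) or 3 (0.05). Without both narrow arrays the difference after IFNa was -0.68 and passed (adjusted p = 0.00804).

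**Figure D2:**
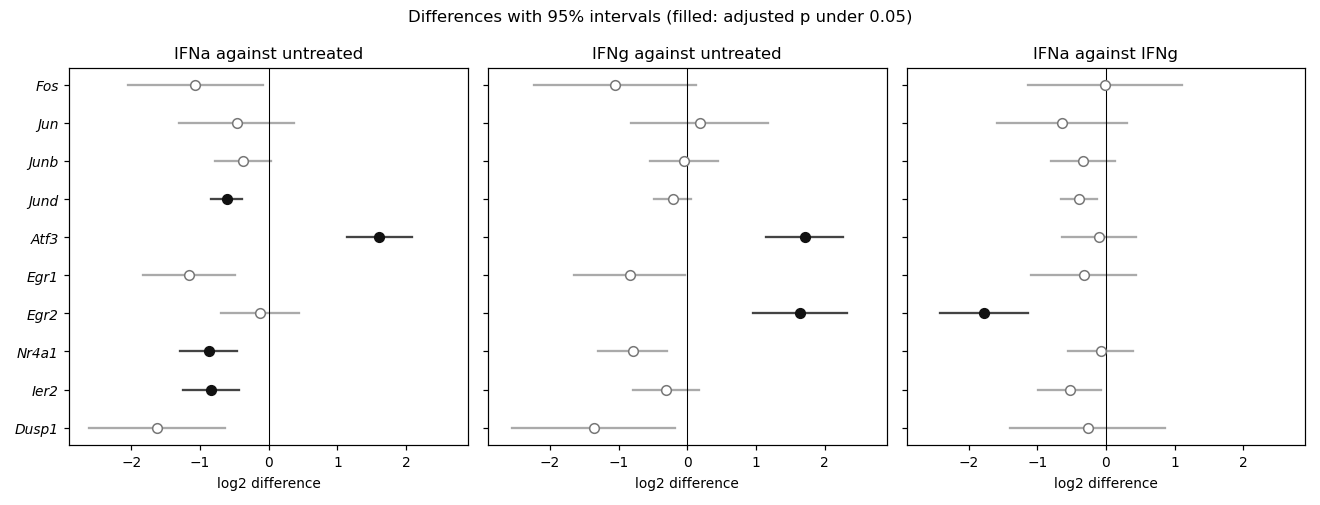
Log2 difference with its 95% interval for each gene after IFNa, after IFNg (both against untreated arrays) and between IFNa and IFNg, where filled points had an adjusted p under 0.05. Atf3 lies to the right of 0 in both comparisons with untreated, Egr2 in that of IFNg alone, and Jund, Nr4a1 and Ier2 are the filled points left of 0 after IFNa.

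Nr4a1 encodes the orphan nuclear receptor NUR77. Its intensity was 318, 286, 228 and 347 after IFNa and 279.6 and 336 after IFNg, against 456, 488 and 679 in untreated arrays. All 6 treated arrays lay below all 3 untreated arrays, and the interferon groups overlapped. It fell after IFNa, with a log2 difference of -0.87 ± 0.19 (1.83-fold lower, adjusted p = 0.0399, limma), whereas the difference of -0.80 ± 0.22 after IFNg did not pass (adjusted p = 0.202). IFNa and IFNg differed by -0.08 (95% interval -0.55 to 0.40). The call after IFNa was lost without IFNa replicates 1, 2 or 3, either IFNg array, or untreated replicates 2 or 3 (adjusted p = 0.0746 to 0.118), and under median centring (0.086).

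Ier2 encodes a small nuclear protein that is itself an immediate early response factor. It gave 220.4, 253, 272 and 172 after IFNa and 289 and 368 after IFNg, against 366, 385 and 469 in untreated arrays. The IFNa arrays lay below the other 5, and the higher IFNg array lay within the untreated range. Ier2 fell after IFNa, with a log2 difference of -0.84 ± 0.18 (1.79-fold lower, adjusted p = 0.0402, limma). The difference after IFNg was -0.31 (95% interval -0.79 to 0.17), and that between the interferons was -0.53 ± 0.20 (adjusted p = 0.551). The call was lost without IFNa replicates 1 or 2, either IFNg array or any untreated array (adjusted p = 0.0573 to 0.141), and under median centring (0.0801).

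Dusp1, the phosphatase gene that shuts off p38 and JNK, was lower on all treated arrays but did not pass the test. Its intensity was 2482, 2436, 1722 and 702 after IFNa and 1496 and 2602 after IFNg, against 3302, 5736 and 6887 in untreated arrays. Every treated array lay below every untreated array, and IFNa replicate 4 was the lowest of the 9. The differences from untreated were log2 -1.62 ± 0.44 after IFNa (3.08-fold lower, 95% interval -2.62 to -0.63, adjusted p = 0.112) and -1.36 ± 0.53 after IFNg (-2.55 to -0.17, adjusted p = 0.515). Without both narrow arrays they were -1.53 (adjusted p = 0.0127) and -1.67 (0.0202). IFNa and IFNg differed by -0.26 (95% interval -1.39 to 0.87).

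In all, 5 members had every IFNa array below every untreated array (Egr1, Jund, Ier2, Nr4a1 and Dusp1), beside 6.75% of all genes, and Atf3 had every IFNa array above, beside 3.68%. After IFNg, Jund, Nr4a1 and Dusp1 did not overlap with untreated on the low side (15.5% of all genes) and Atf3 and Egr2 on the high side (12.3%). Between the interferons Egr2, Jund and Ier2 were lower on all IFNa arrays than on both IFNg arrays (15.6% of all genes), and no member was higher on all of them (12.8%).

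Arrays of one group did not share a level. Untreated replicate 1 was the lowest untreated array for all 10 members, with a median deviation from the untreated mean of log2 -0.38. On the same array, the 8341 genes whose mean level was at least that of the dimmest member deviated by a median of -0.26. IFNg replicate 2 was above replicate 1 for 9 of 10 members, with Atf3 the exception. The median deviation of the members was 0.26 there, against 0.01 for those 8341 genes. IFNa replicate 4 was the lowest IFNa array for 4 members and the highest for 3. Untreated replicates 2 or 3 held the highest value of all 9 arrays for 8 of the 10 genes, and the other 2, Atf3 and Egr2, peaked in IFNg arrays.

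**Figure D3:**
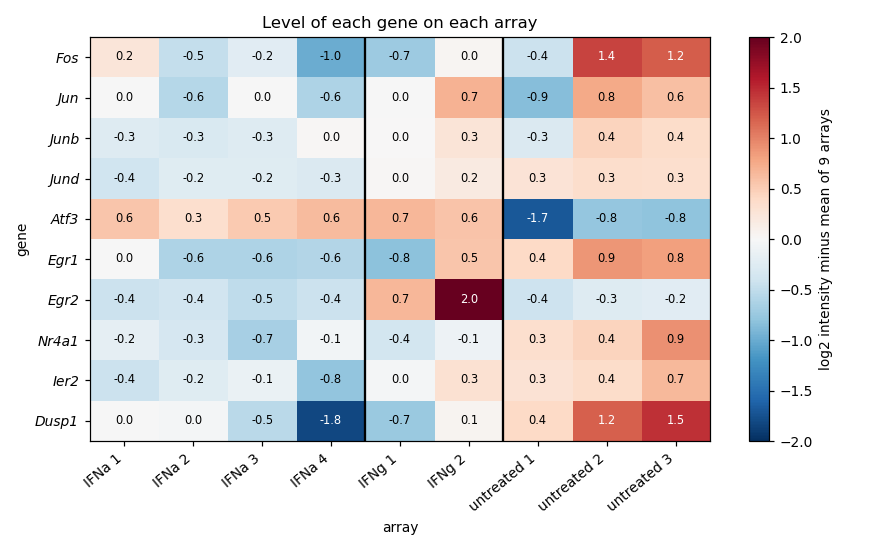
Log2 intensity of each gene (rows) on each array (columns) minus that gene's mean over the 9 arrays, with IFNa, IFNg and untreated arrays separated by black lines. Untreated replicates 2 and 3 are the highest columns for most genes, Atf3 runs the other way, and Egr2 stands out in the IFNg arrays.

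Other immediate early genes moved in both directions. Of 40 measured, 5 rose and 4 fell after IFNa (list median log2 -0.04), beside 1.79% and 0.856% of all genes. After IFNg 2 rose and none fell (-0.02), beside 1.24% and 0.111%. Unadjusted p-values under 0.05, in either direction, numbered 17 after IFNa and 12 after IFNg, beside 2356 and 1626 of all 19752 genes. Pim1, a survival kinase gene, had intensities of 1710.5, 2269, 2477 and 2877 after IFNa and 3055 and 3622 after IFNg, against 592, 689 and 1032 in untreated arrays. All treated arrays lay above the untreated ones, and Pim1 rose by 1.61 ± 0.22 and 2.15 ± 0.27 (adjusted p = 0.0031 and 0.00352, limma), and its IFNg call was lost without IFNg replicate 2 (0.0619). Tiparp, which encodes an ADP-ribosyltransferase, rose by 1.14 after IFNa. Csrnp1, which encodes a nuclear protein, rose by 0.91 after IFNa and 1.16 after IFNg, and Trib1, a pseudokinase gene, fell by 1.19 after IFNa. Trib1 and Csrnp1 lost their IFNa calls without IFNa replicate 3 or untreated replicates 2 or 3 (adjusted p up to 0.0849 and 0.145). Csrnp1 lost its IFNg call without IFNa replicate 3, either IFNg array or any untreated array (up to 0.398). Leaving out each array in turn gave 2 to 5 rises and 0 to 4 falls after IFNa, and 0 to 5 rises after IFNg. Between the interferons none of the 40 was called by limma (10 had an unadjusted p under 0.05, beside 1397 of all 19752 genes). The smallest p was that of the kinase gene Sgk1 (1.17, adjusted p = 0.225).

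Of 19 genes of the AP-1 family and its dimer partners, 3 rose after IFNa (median -0.10) and 1 after IFNg (-0.06), and none fell. Of all genes, 1.79% and 1.24% were called higher. Unadjusted p-values under 0.05 numbered 7 and 5, beside 2356 and 1626 of all 19752 genes. Batf2, a leucine zipper partner of JUN proteins, gave 747, 747, 819 and 1235 after IFNa and 3335 and 2698 after IFNg, against 301, 319 and 258 in untreated arrays. The 3 groups did not overlap. It rose by 1.57 ± 0.19 after IFNa and 3.36 ± 0.23 after IFNg, and the difference of IFNa from IFNg was -1.79 (adjusted p = 0.00421, limma), lost without IFNg replicate 1 (0.0967). Mafk, a small MAF factor gene, rose by 1.00 after IFNa. Maf, a large MAF factor gene, rose by 0.79 after IFNa, a call lost without any single array but IFNa replicate 4 (adjusted p up to 0.113). Batf, another partner of JUN proteins, was lower with IFNa than with IFNg by -0.83 (adjusted p = 0.0187, lost without IFNa replicates 2 or 3 or either IFNg array, up to 0.304).

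The list of paralogs and direct regulators held 16 measured genes, of which 1 rose after IFNa (median -0.07) and 3 after IFNg (-0.17), and none fell. Of all genes, 1.79% were called higher after IFNa and 1.24% after IFNg. At an unadjusted p under 0.05 there were 3 and 4 genes, beside 2356 and 1626 of all 19752. All called genes were MAP kinase phosphatases other than Dusp1, but most measured genes of this list are Dusp genes. Dusp10, which acts on p38 and JNK, had intensities of 456, 463, 491 and 463 after IFNa and 1343 and 1321 after IFNg, against 304, 335 and 361 in untreated arrays. The groups did not overlap, and the 2 IFNg arrays lay close together. It rose by 0.49 ± 0.10 (adjusted p = 0.0371) after IFNa and 2.00 ± 0.12 (4.88e-05) after IFNg, and the interferons differed by -1.51 ± 0.12 (3.12e-04, limma). The IFNa call was lost without any single array but IFNa replicate 4 or untreated replicate 3 (adjusted p up to 0.158). Dusp16, which encodes a JNK phosphatase, and Dusp5, which encodes a nuclear ERK phosphatase, rose by 1.18 and 1.15 after IFNg. Both passed with all 9 arrays (adjusted p = 0.0388 and 0.0437, limma). With arrays left out singly, Dusp16 kept its call only without IFNa replicates 1 or 4 or untreated replicate 3. Dusp5 kept its call only without IFNa replicate 4.

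Of 25 upstream kinases and transcription factors measured, 2 rose and 1 fell after IFNa (median -0.03), and 1 rose after IFNg (0.13). Of all genes, 1.79% rose and 0.856% fell after IFNa, and 1.24% rose after IFNg. Unadjusted p-values under 0.05 numbered 12 and 7, beside 2356 and 1626 of all 19752 genes. Map3k8, the kinase gene that feeds MEK and ERK in activated macrophages, had 1276, 1239, 1282 and 1072 after IFNa and 638 and 915 after IFNg, against 429, 453 and 627 in untreated arrays. All treated arrays lay above the untreated ones, the lower IFNg array only just. It rose by 1.29 ± 0.17 after IFNa (adjusted p = 0.00259, limma). Map2k1, which encodes MEK1, rose by 1.15 after IFNa, a call lost without untreated replicate 2 (adjusted p = 0.0685). Mapk7, which encodes ERK5, fell by 0.57, a call lost without any single array but IFNa replicate 4 (up to 0.118). Crem, a CREB family gene, rose by 1.22 after IFNg (adjusted p = 0.00873), lost without IFNg replicate 1 or 2 (up to 0.137). None of the 25 was called between the interferons by limma (6 had an unadjusted p under 0.05, beside 1397 of all 19752 genes). The smallest p was that of Elk1, an ETS partner of serum response factor (-0.51, adjusted p = 0.109).

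**Figure D4:**
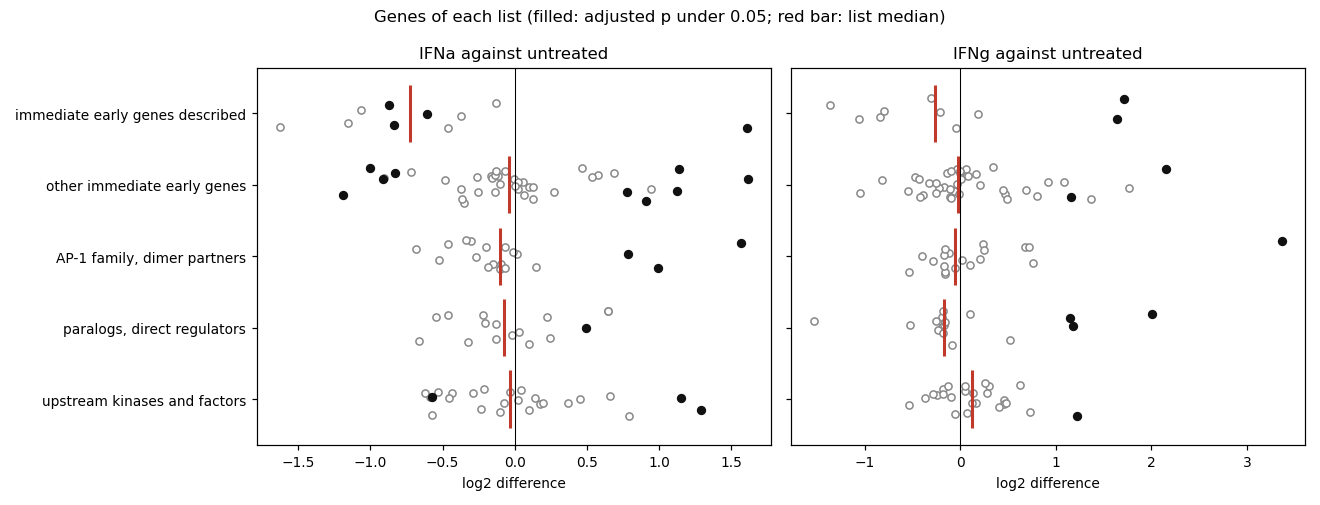
Log2 difference of each measured gene of 5 lists after IFNa and after IFNg against untreated, with filled points for an adjusted p under 0.05 and a red bar at the list median. The medians lie at -0.72 and -0.26 for the 10 genes described and between -0.17 and 0.13 for the other lists.

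Heat shock genes, which protein-damaging stress induces, were followed beside these lists. None of the 9 measured was called in any comparison by limma. After IFNa, after IFNg and between the interferons, 5, 2 and 0 had an unadjusted p under 0.05, beside 2356, 1626 and 1397 of all 19752 genes. All 9 had positive differences in both comparisons with untreated (median 0.58 and 0.54), beside 9124 and 7886 of all genes. Both comparisons use the same untreated arrays. The summed intensity of the 9 genes was 16442 to 20237 in IFNa arrays and 15881 to 20886 in IFNg arrays, against 11125 to 17005 in untreated arrays. Hspa8 weighs most in this sum, with geometric means of 10130 in IFNa arrays and 7822 in untreated arrays. The smallest p belonged to Hsph1 after IFNa (0.93, adjusted p = 0.164), Hspe1 after IFNg (1.00, 0.385) and Dnajb1 between the interferons (-0.54, 0.802). Whether these levels bear on those of the immediate early genes was not tested.

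The profiles most like those of the 3 members with the widest range of group means were sought over the 9 arrays, by the root mean square difference of log2 levels after removing each gene's mean. For Egr2 they were Il18rap, B4galt3 and Tgm1, at 0.27, 0.30 and 0.32, against a median of 0.80 over 13816 candidate genes. Those of Atf3 were Casp4, Mlkl and Trex1, at 0.13, 0.14 and 0.18, against a median of 0.86. The nearest to Dusp1 were H1f2, Ubash3a and Engase, at 0.31, 0.36 and 0.37, against 0.94. Il18rap, for example, averaged log2 6.34 in IFNa and 8.17 in IFNg arrays, against 6.34 in untreated arrays, and Casp4 averaged 10.70 in IFNa and 10.95 in IFNg arrays, against 9.08 in untreated arrays. All 9 arrays that define this likeness are also those in which the members were tested.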

How the data were processed

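RNA of 9 macrophage samples was measured on single-colour Affymetrix arrays. Per the labels' protocols, TriZol was used for extraction and biotin as the label. The authors deposited linear RMA intensity, made with Affymetrix Power Tools and RMA per the submitters' processing notes, with no version; which arrays were normalized together is not given in the sources used here. The number of arrays limits the precision.

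Intensities were put on the log2 scale. Of 24922 probe sets, 21425 carried exactly 1 gene symbol, 1399 several and 2098 none. Each of 19752 genes was represented by its single-symbol probe set with the highest mean, and all 10 members had 1 such probe set each. No gene was filtered. A model of 3 group means on all 9 arrays was fitted with limma 3.58.1 in R 4.3.3 (6 residual and 3.62 prior degrees of freedom), so IFNg, with 2 arrays, borrowed the spread of the other groups. Tests were two-sided, with Benjamini-Hochberg adjustment over all genes. Errors after a log2 difference are SE. The fit was tested on simulated data.

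The members and gene lists were chosen with earlier results of these data known. Named genes were the members and, per other list and comparison, up to 4 called genes with the smallest p, or the single smallest p where none was called. Some listed genes are not reported here. Alternatives were other variance priors, quantile normalization, median centring, filters on dim genes, a fit of the compared groups, array weights, replicate blocks, second probe sets, stricter calls and leaving out arrays. A fit with the array's quartile range as a covariate was added after seeing the data. Promoter stretches came from RefSeq and were searched in Python 3.11.15 with pandas 2.3.3.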

Additional observations from a re-analysis of the deposited data

Results flagged for a closer look

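Egr2 differed between the interferons: the log2 difference of IFNa from IFNg was -1.77, and the difference itself passed the test (limma, adjusted p = 0.0187). That fit assumes an equal spread in all groups, while the IFNg arrays spread most for Egr2. In the limma fit of IFNa and IFNg arrays alone Egr2 did not pass (adjusted p = 0.0905). Batf2 (-1.79), Dusp10 (-1.51) and Batf (-0.83) also differed directly between the interferons, each lower with IFNa. Of these 4, only Dusp10 kept its call without each single array in turn.

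In the IFNa group 2 members had an array far from the other 3. Egr1 had an intensity of 422 in IFNa replicate 1, with the other IFNa arrays between 274 and 281, and Junb had 742 in IFNa replicate 4, with the others between 595 and 617. An array was singled out where its gap to the nearest other, over the range of the group, passed Dixon's 95% critical value. By its construction that value singles out about 1 in 20 groups by chance. Each of the 10 members was open to it, so such arrays can arise by chance.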

How the results depend on the processing

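The rise of Atf3 after IFNa passed in every fit listed here. The number of members that fell after IFNa, 3 in the report, was 0 at an adjusted p under 0.01 or when at least a 2-fold change was required, 1 with an intensity trend in the prior variance or median centring, and 5 under quantile normalization (Egr1, Jund, Ier2, Nr4a1 and Dusp1). It was 8 with array weights, 6 without both narrow arrays and 5 with the quartile range as a covariate, and 0 to 3 when each array was left out in turn. Rises after IFNg, 2 in the report, numbered 1 at an adjusted p under 0.01 and without both narrow arrays, 0 in the fit of the compared groups alone, and 0 to 2 when each array was left out. Falls after IFNg, 0 in the report, numbered 7 with array weights, 2 without both narrow arrays and 1 with the covariate. The 1 gene lower with IFNa than with IFNg became 0 at an adjusted p under 0.01, in the fit of the compared groups alone and in some fits that left out 1 array (0 to 1), and 3 with array weights. Array weights gave untreated replicate 2 a weight of 140.6, against 0.0945 to 1.93 for the other arrays, and their estimation did not converge, so that fit follows 1 array. The causes of the other shifts were not tested.

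Replicate numbers in the titles are shared by the groups, but nothing says they mark shared animals or days, and deviations from the group means correlated between same-numbered arrays at -0.21 to 0.60. An array of its own title number was the best match across groups for 4 of 9 arrays. IFNa replicate 4 had no same-numbered array in another group. The highest correlation across groups, 0.61, was between IFNa replicate 4 and untreated replicate 1, the narrow arrays. With a replicate block by title numbers the counts of members called were as reported (1 rise and 3 falls after IFNa, 2 rises after IFNg, 1 lower in IFNa against IFNg). A block by description numbers gave 1 rise after IFNg and 0 between the interferons. IFNa replicate 4 is the only array with its number in either numbering, so it adds nothing to the group differences in either block fit. With the title block the differences after IFNa equal those without that array, as for Atf3 (1.57 in both).

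No called difference of a member changed direction under any alternative. Signs turned for differences that did not pass in the report. After IFNa they were Egr2 (0.0458) and Jun (0.0528), both with the description block. Jun after IFNg turned to -0.0248 under quantile normalization, -0.40 with array weights, -0.33 without both narrow arrays, -0.16 with the description block and -0.19 with the covariate. Junb after IFNg turned to 0.0089 with the title block. When arrays were left out singly, the difference after IFNg ranged from -0.33 to 0.53 for Jun and from -0.28 to 0.0878 for Junb. Between IFNa and IFNg, Fos turned to 0.006 and Nr4a1 to 0.0902 under quantile normalization. Fos and Dusp1 turned to 0.0615 and 0.11 with array weights, 0.20 and 0.15 without both narrow arrays, 0.0904 and 0.12 with the title block, 0.92 and 0.52 with the description block and 0.53 and 0.34 with the covariate, which also turned Atf3 to 0.0394. The description block turned Atf3 to 0.21, Egr1 to 0.0095, Jun to 0.21 and Dnajb1 to 0.0175. Leaving out single arrays gave ranges of -0.40 to 0.37 for Fos, -0.66 to 0.15 for Dusp1, -0.21 to 0.0581 for Nr4a1 and -1.01 to 0.36 for Egr1. Quantile normalization called 5 members lower of 6 called after IFNa, against 3 of 4 in the report and 1 of 2 under median centring. Between the interferons, all-gene calls split into 87 higher and 106 lower in the report and 160 and 116 under quantile normalization. Neither scaling moved the median of all genes by as much as 0.05. The second probe set changed no member, since each has 1.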
